A study of Mus musculus with 13 samples.

Results

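Transcripts of 9 hormones and other secreted proteins of fat were followed in interscapular brown adipose tissue (iBAT). The 9 genes were chosen by name as adipokines (proteins secreted by adipocytes) or batokines (proteins secreted by brown fat) other than adiponectin, and are Lep, Retn, Rbp4, Nrg4, Bmp8b, Fgf21, Gdf15, Apln and Nampt. Each of the 9 had exactly 1 row among the 42416 Ensembl identifiers measured. Bulk RNA sequencing gave 13 libraries, 8 labelled iFAXLKO and 5 labelled WT. Both groups carried floxed Axl (loxP-Axl-loxP), ate a high-fat diet (HFD), were kept at room temperature and were given tamoxifen every 3 weeks, and they differed in Cre, which was present in iFAXLKO and absent in WT. Per the methods of the study, the mice were female littermates and the Cre line was Adipoq-CreERT2, a tamoxifen-inducible Cre on a bacterial artificial chromosome that holds the Adipoq promoter, so that recombination is directed to adipocytes and not to other cells of the depot. The labels do not give the age at tissue collection. They number the libraries as replicates without saying that each is a separate mouse, so the p-values measure the spread between these samples.

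Adipokines carry signals from fat to brain, liver, muscle and vessels. Leptin (Lep), made mainly by white adipocytes, acts on hypothalamic neurons to limit food intake, and resistin (Retn) is an adipocyte hormone of mice that impairs insulin action. Retinol-binding protein 4 (Rbp4) carries vitamin A in plasma, and apelin (Apln) is a peptide that acts on vessels and heart through a G protein-coupled receptor. Neuregulin 4 (Nrg4) signals through ErbB receptors and BMP8b (Bmp8b) through BMP and activin receptors, and both are known from brown fat. FGF21 and GDF15 are hormones induced by cellular stress, which act through FGF receptors with β-Klotho and through GFRAL in the hindbrain. Nampt makes nicotinamide mononucleotide, a precursor of NAD, and also occurs outside the cell, where it is known as visfatin.

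The 150 bases before the RefSeq transcription start are shown for the 5 genes on which the results turn. Lep and Bmp8b are shown because their levels were inversely related, Retn because its group difference was the largest of the 9 relative to its error, and Fgf21 and Gdf15 because they were the 2 genes at the limit of detection. All 9 genes had a RefSeq promoter window, 11 windows in all, each with 250 bases before and 50 after the start (GRCm38.p6). The sequences run 5′ to 3′ on the strand of the gene, and capitals mark matches to the motifs named after them.
Lep: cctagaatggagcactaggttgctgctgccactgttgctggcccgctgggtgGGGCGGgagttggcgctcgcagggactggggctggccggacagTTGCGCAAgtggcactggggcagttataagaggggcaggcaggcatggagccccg
Bmp8b: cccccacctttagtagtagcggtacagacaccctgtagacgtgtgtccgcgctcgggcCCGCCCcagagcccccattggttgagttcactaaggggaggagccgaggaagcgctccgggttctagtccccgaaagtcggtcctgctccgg
Retn: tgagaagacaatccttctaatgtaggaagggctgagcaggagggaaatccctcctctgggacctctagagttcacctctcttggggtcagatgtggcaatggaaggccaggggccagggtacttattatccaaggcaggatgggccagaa
Fgf21: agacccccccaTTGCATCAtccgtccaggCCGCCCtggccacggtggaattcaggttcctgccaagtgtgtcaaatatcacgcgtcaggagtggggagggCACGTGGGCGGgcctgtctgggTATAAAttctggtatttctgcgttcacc
Gdf15: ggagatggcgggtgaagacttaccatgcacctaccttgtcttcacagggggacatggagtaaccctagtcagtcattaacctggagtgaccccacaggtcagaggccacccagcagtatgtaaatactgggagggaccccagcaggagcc
These stretches lie at chr6:29060071-29060220 on the plus strand for Lep, chr4:123105011-123105160 on the plus strand for Bmp8b, chr8:3655620-3655769 on the plus strand for Retn, chr7:45615491-45615640 on the minus strand for Fgf21 and chr8:70632457-70632606 on the minus strand for Gdf15.

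7 motifs were searched on both strands of every window, and each match is a match of letters and not a measured binding site. The palindromic C/EBP element TTGCGCAA, at -55 in Lep, was in 0.183% of 32851 RefSeq promoters. The amino acid response element TTGCATCA, at -139 in Fgf21, was in 0.895%. The E-box CACGTG was in 7.15% of promoters and stood at -50 in Fgf21, where its last base is also the first of a GC box. The other Gdf15 window, which is not shown, held an E-box at -83. The TATA element TATAAA was in 13.6% and stood at -28 in Fgf21. The GC box GGGCGG was in 35.7%, and the Lep and Bmp8b windows each held 1, at -98 and, on the opposite strand, at -92. The Retn window and the Gdf15 window shown held none of the 7 motifs. Neither the cAMP response element TGACGTCA, in 1.79% of promoters, nor the direct repeat 1, 2 copies of AGGTCA with 1 base between, in 0.0396%, matched any of the 11 windows. So the Lep and Bmp8b windows shared the common GC box and no rarer motif.

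The libraries held 22.44 to 32.6 M counts, of which 18.33% to 21.3% were from mitochondrially encoded genes. A count of 0 allows up to 3 counts, or 0.092 to 0.134 CPM, counts per M counts of the library, a limit for counting error alone, because the reads carried no molecular identifiers and may repeat a molecule. The 12 brown adipocyte markers all passed the filter on low values and summed to 8750 to 12900 CPM in iFAXLKO and 10390 to 15190 CPM in WT. Of the 9 white adipocyte markers, 5 passed the filter (Npr3, Sncg, Slc7a10, Nnat and Hoxc8, from means of 70.8 and 69.2 CPM for Npr3 in iFAXLKO and WT to 2.77 and 3.27 CPM for Hoxc8), while Tcf21 was at 0 in all 13 libraries and Hoxc10 in 12. Axl, the targeted gene, was at 33.1 ± 6.16 CPM (SD, n = 8) in the libraries labelled iFAXLKO and 27.8 ± 3.83 CPM (SD, n = 5) in WT, and edgeR gave 0.25 (SE 0.13, adjusted p = 0.699) for its log2 fold change. Axl transcript was thus not lower in the libraries labelled iFAXLKO. The counts cover the whole gene in all cells of the depot and do not measure the deleted part or the adipocytes alone, and the direction of each difference below rests on the labels. Genes on both sides of Adipoq on chromosome 16 did follow the labels. Those given here were named after their values were seen and had the smallest edgeR p of all genes. They are thus no separate check of the labels. Eif4a2 was at 1041 ± 100.1 CPM (SD, n = 8) in iFAXLKO against 238 ± 23.01 CPM (SD, n = 5) in WT, and the antisense transcript B630019A10Rik at 35.1 ± 3.68 against 0.0985 ± 0.0353 CPM, with edgeR adjusted p of 3.182e-09 and 2.413e-14. Adipoq, whose promoter drives the Cre, was the gene of the secreted-factor list that passed the limit (below).

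Compared per kb of exon, the 9 transcripts spanned more than 2 orders of magnitude. Rbp4 led with 71.1 ± 19.3 CPM per kb (SD, n = 8) in iFAXLKO and 83.0 ± 35.0 (SD, n = 5) in WT. Nampt was next at 69.0 ± 13.5 and 72.7 ± 5.06 CPM per kb, and Rbp4 was above Nampt in 7 of 13 libraries, so that these neighbours did not separate. Retn followed with 25.7 ± 7.30 and 14.1 ± 6.96 CPM per kb, below Nampt in 13 of 13 libraries. Nrg4, at 12.9 ± 2.49 and 12.2 ± 0.634 CPM per kb, was below Retn in 10 libraries and above Lep in 10. Lep and Bmp8b did not separate, Lep being the higher in 7 of 13, with means of 8.38 ± 7.00 and 7.43 ± 7.48 CPM per kb for Lep and 6.09 ± 3.85 and 6.13 ± 2.21 for Bmp8b. Apln was lower, at 4.41 ± 2.26 and 2.75 ± 0.778 CPM per kb. Fgf21 and Gdf15 were below Apln, with means of 0.204 to 0.576 CPM per kb, and Fgf21 was below Apln in 13 of 13 libraries.

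**Figure D1:**
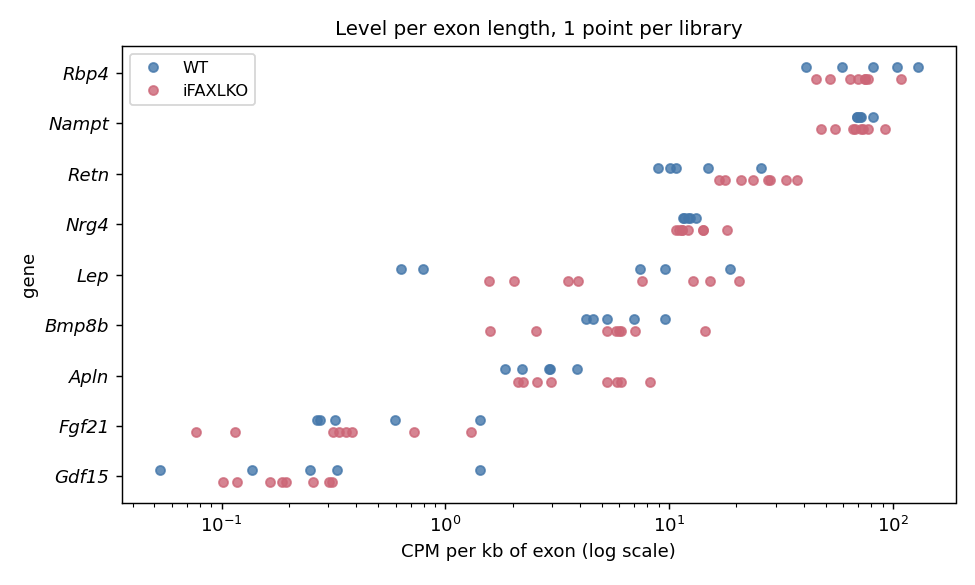
Level of each gene as CPM per kb of exon (log axis), 1 point per library, with WT in blue and iFAXLKO in red. Rbp4 and Nampt overlap at the top, Lep covers the widest range of the well detected genes (0.632 to 20.5 CPM per kb), and Fgf21 and Gdf15 lie at the bottom.

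The first question was whether any of the 9 transcripts differed between iFAXLKO and WT. 7 of the 9 genes passed the filter (more than 1 CPM in at least 5 libraries), and Fgf21 and Gdf15 did not. None of the 7 passed an adjusted p of 0.05 in edgeR, against 17 of all 13360 genes tested (0.127%), of which 13 were higher in iFAXLKO (0.0973% of all genes) and 12 were also past 2-fold (0.0898%). At an unadjusted p under 0.05, edgeR had 1 of the 7, Retn, against 7.38% of all genes. DESeq2 had 2 of the 7, Retn and Apln, against 8.3% of all genes, and none past the adjusted limit. The CPM ranges of the groups overlapped for all 9 genes, while 0.434% of all genes had ranges that did not. Of the 7, 4 had a positive and 3 a negative log2 fold change, with a median of 0.08 beside -0.01 over all genes. In bulk tissue, fewer cells of a type and less RNA per cell cannot be told apart for any of these genes.

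**Figure D2:**
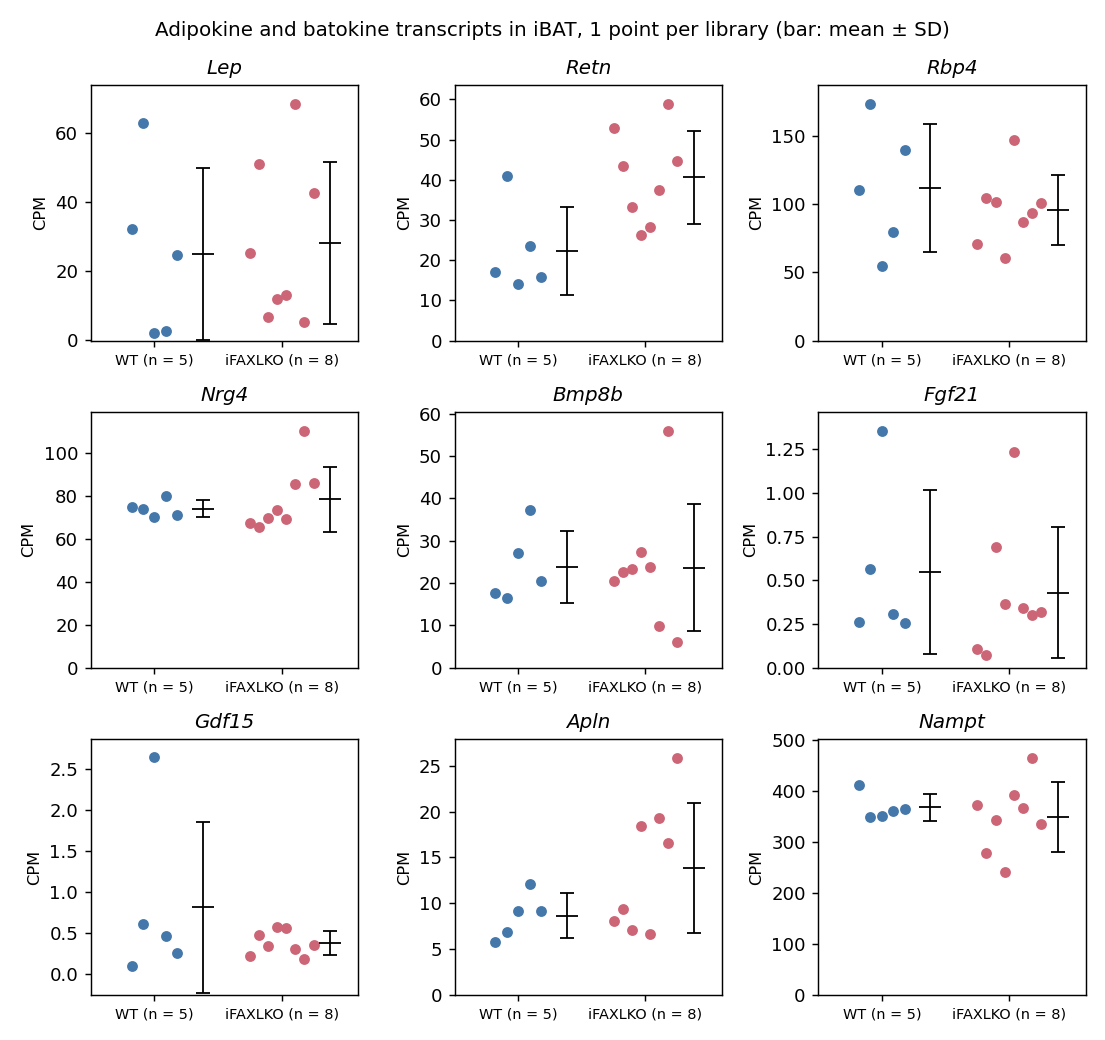
CPM of the 9 transcripts in each library, with WT (n = 5) in blue, iFAXLKO (n = 8) in red and the mean ± SD beside the points. The groups overlap in every panel, 4 of the 5 WT libraries lie below all iFAXLKO libraries for Retn, and single high libraries stand out for Bmp8b, Nrg4, Fgf21 and Gdf15.

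Retn (ENSMUSG00000012705, chromosome 8, 3655770 to 3660110, GRCm38) showed the largest difference relative to its error. In WT replicates 1 to 5 its level was 17.0, 40.9, 14.1, 23.5 and 15.9 CPM. In the 8 iFAXLKO libraries it ran from 26.3 through a median of 40.5 to 58.9 CPM. WT replicate 2 lay among the iFAXLKO libraries, and the other 4 WT libraries lay below all of them. The means were 40.6 ± 11.5 CPM (SD, n = 8) and 22.3 ± 10.99 CPM (SD, n = 5), that is 183% of WT, and 8 of 8 iFAXLKO libraries were above the WT mean. The edgeR log2 fold change was 0.87 (SE 0.27, 0.32 to 1.42 at ± 2 SE). Its unadjusted p was 0.00693 and its adjusted p 0.49, the gene being number 181 of 13360 by p. An exact permutation test of mean log2 CPM, 2-sided over 1287 splits, gave p = 0.0101 (smallest possible 0.000777), without adjustment for the number of genes. In a test of Retn alone the difference therefore exceeded the spread of this gene. That p was not adjusted for picking Retn from the 9 genes, each of which was tested in the same way. Over all genes the difference did not pass the adjustment.

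The Retn difference had the same sign with each of the 13 libraries left out, from 0.76 without WT replicate 3 to 1.21 without WT replicate 2, with edgeR adjusted p between 0.0862 and 0.94. DESeq2 gave an adjusted p of 0.0732. Within the 6 libraries with the lower library numbers in the labels (4 iFAXLKO and 2 WT) the difference of mean log2 CPM was 0.52, and within the 7 with the higher numbers (4 and 3) it was 1.23. Markers of several other cell types also had positive fold changes in iFAXLKO over WT. The 10 fibroblast markers summed to 1657 to 2383 CPM in iFAXLKO and 1147 to 1760 CPM in WT, with 10 of 10 positive fold changes, 9 at an unadjusted p under 0.05, none past the adjusted limit and none at 0. The 10 macrophage markers summed to 153 to 301.5 CPM in iFAXLKO and 129 to 185 CPM in WT, also with 10 of 10 positive, 9 at an unadjusted p under 0.05, none past the adjusted limit and none at 0. Over all genes, 3.84% were higher at that unadjusted limit. Of the other markers that passed the filter, 9 of 10 endothelial, 8 of 8 mural and 5 of 5 erythroid ones were positive. So were 6 of 7 Schwann cell, 4 of 5 white adipocyte, 4 of 12 brown adipocyte and 1 of 13 skeletal muscle markers. With group means subtracted, Pearson's r of Retn over the 13 libraries was 0.35 with the fibroblast score and -0.04 with the macrophage score. With a fibroblast score as a covariate the Retn log2 fold change was 0.50 (edgeR unadjusted p = 0.208). With a macrophage score as a covariate it was 0.89 (edgeR unadjusted p = 0.029). Both had an edgeR adjusted p of 1.

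Retn has 3 relatives in mice, and 1 of them was well detected here. Retnla, a resistin-like protein known from alternatively activated macrophages, was at 10.2 ± 3.60 CPM (SD, n = 8) in iFAXLKO and 5.98 ± 2.66 CPM (SD, n = 5) in WT, and 7 of 8 iFAXLKO libraries were above the WT mean. Its edgeR log2 fold change was 0.77 (SE 0.29), with an unadjusted p of 0.017 and an adjusted p of 0.55. Retnlg had at most 6 counts in any library and Retnlb had 0 in all 13. Since the counting tool and its treatment of reads shared between similar genes are not given in the sources used here, the split between Retn and Retnla is uncertain to that extent.

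Apln (ENSMUSG00000037010, chromosome X, 48025146 to 48034853) was spread unevenly within iFAXLKO. The WT libraries, replicates 1 to 5, were at 5.79, 6.91, 9.21, 12.2 and 9.19 CPM. The iFAXLKO libraries ran from 6.62 through a median of 12.9 to 25.8 CPM. Replicates 4, 6, 7 and 8 of iFAXLKO were above all WT libraries, and the other 4 lay within the WT range. The means were 13.9 ± 7.10 CPM (SD, n = 8) and 8.65 ± 2.45 CPM (SD, n = 5). The edgeR log2 fold change of 0.68 (SE 0.35, -0.02 to 1.38 at ± 2 SE) had an unadjusted p of 0.0721 and an adjusted p of 0.709, and the exact permutation p was 0.16. It was positive with each library left out (0.50 to 0.84), but 0.37 in limma-voom with sample quality weights and 0.50 with a skeletal muscle score as a covariate. The 4 high libraries held 3.07 to 927 CPM of skeletal muscle markers and the other 4 iFAXLKO libraries 198 to 5788 CPM, and the part of this in the spread of Apln within iFAXLKO was not tested. Within the lower and the upper library numbers the difference of mean log2 CPM was 0.65 and 0.60.

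Lep (ENSMUSG00000059201, chromosome 6, 29060220 to 29073877) was the most variable of the 7 genes. WT replicates 1 to 5 were at 32.1, 63.0, 2.12, 2.67 and 24.8 CPM, and the iFAXLKO libraries ran from 5.26 through a median of 19.3 to 68.6 CPM. The highest library was 32.4 times the lowest, 29.7 times within WT and 13.04 times within iFAXLKO. Its SD of log2 CPM within groups, 1.72, was above that of 99.1% of the genes tested. WT replicates 3 and 4 were lower than every iFAXLKO library, and the other WT libraries lay within the iFAXLKO range.

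The groups were not separated for Lep at this spread. Means were 28.1 ± 23.5 CPM (SD, n = 8) and 24.9 ± 25.1 CPM (SD, n = 5). The edgeR log2 fold change was 0.18 (SE 0.86, -1.55 to 1.90 at ± 2 SE, adjusted p = 0.986), an interval that includes a change of more than 2-fold in either direction. The exact permutation p was 0.512 for a difference of 0.65 in mean log2 CPM. The difference of mean log2 CPM was -1.32 among the lower library numbers and 2.01 among the upper ones, so that it had opposite signs in the 2 ranges. The edgeR value turned negative without WT replicate 3 (-0.10), WT replicate 4 (-0.11), iFAXLKO replicate 6 (-0.15) or, barely, iFAXLKO replicate 2 (-0.001). It was 0.87 without WT replicate 2, and limma-voom with sample quality weights gave 1.73. The 9 white adipocyte markers, of which 5 passed the filter, summed to 75.4 and 88.7 CPM in WT replicates 3 and 4 and to 155 to 182 CPM in the other WT libraries. Their sum was 98.6 to 178 CPM in iFAXLKO, lowest in replicate 7, the iFAXLKO library with the lowest Lep. It was highest in iFAXLKO replicate 5, where Lep was only 13.2 CPM. With group means subtracted, Pearson's r of Lep with the white adipocyte score was 0.75 over the 13 libraries. The part of these markers in the Lep values was not tested.

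Bmp8b (ENSMUSG00000002384, chromosome 4, 123105165 to 123132099) also varied widely. WT replicates 1 to 5 were at 17.7, 16.4, 27.2, 37.2 and 20.5 CPM, and the iFAXLKO libraries ran from 6.17 through a median of 22.9 to 55.9 CPM. The highest and the lowest of all 13 libraries were both iFAXLKO, replicates 7 and 8. The SD of log2 CPM within groups was 0.82, above that of 97.8% of genes. Means were 23.6 ± 14.9 CPM (SD, n = 8) and 23.8 ± 8.57 CPM (SD, n = 5), with an edgeR log2 fold change of -0.01 (SE 0.43, -0.87 to 0.85 at ± 2 SE, adjusted p = 0.997). The sign turned with upper quartile factors (0.016) and other library sizes (0.029). Without iFAXLKO replicate 7 the value was -0.32, without WT replicate 4 it was 0.21, and with a fibroblast score as a covariate it was -1.37 (adjusted p = 1). Macrophage markers summed to 301.5 CPM in iFAXLKO replicate 7, their highest. In iFAXLKO replicates 8 and 6, where Bmp8b was lowest, they summed to 177 and 153 CPM. They also summed to 177 CPM in iFAXLKO replicate 1 and to 129 CPM in WT replicate 5, with Bmp8b at 20.4 and 20.5 CPM. With group means subtracted, Pearson's r of Bmp8b with the macrophage score was 0.86 over the 13 libraries. The part of these markers in the Bmp8b values was not tested. Exons of Bmp8b overlap those of Ppie on the opposite strand, and with the strand setting not given in the sources used here their reads cannot be told apart in the overlap. Ppie was at 14.1 ± 0.686 and 14.0 ± 2.99 CPM. The near copy Bmp8a had at most 5 counts in any library.

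Nrg4 (ENSMUSG00000032311, chromosome 9, 55220222 to 55326844) was the steadiest of the 7. It was at 70.4 to 80.0 CPM in the 5 WT libraries and at 65.5 to 110 CPM, with a median of 71.7, in iFAXLKO. Replicates 6, 7 and 8 of iFAXLKO were above all WT libraries, and the other 5 were within or below the WT range. The means of 78.4 ± 15.1 CPM (SD, n = 8) and 74.1 ± 3.85 CPM (SD, n = 5) gave an edgeR log2 fold change of 0.08 (SE 0.11, -0.15 to 0.31 at ± 2 SE, adjusted p = 0.933). Without iFAXLKO replicate 7 it was -0.004. Exons of Nrg4 overlap those of Fbxo22 on the opposite strand, which was at 18.7 ± 1.87 and 17.8 ± 1.98 CPM.

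Nampt and Rbp4 also did not separate the groups. Nampt (ENSMUSG00000020572, chromosome 12, 32819545 to 32853349) was at 348 to 411 CPM in WT and 241 to 464 CPM in iFAXLKO, a range that covers all WT libraries. Its means were 349 ± 68.3 CPM (SD, n = 8) and 367 ± 25.6 CPM (SD, n = 5), with an edgeR log2 fold change of -0.07 (SE 0.13, -0.33 to 0.18 at ± 2 SE, adjusted p = 0.947). Rbp4 (ENSMUSG00000024990, chromosome 19, 38116629 to 38125281) was at 54.8 to 173 CPM in WT and 60.7 to 147 CPM in iFAXLKO. Its means were 95.5 ± 25.9 CPM (SD, n = 8) and 112 ± 47.0 CPM (SD, n = 5), and edgeR gave a log2 fold change of -0.22 (SE 0.25, -0.73 to 0.29 at ± 2 SE, adjusted p = 0.907). Its difference of mean log2 CPM was -0.75 among the lower and 0.30 among the upper library numbers, and limma-voom with sample quality weights gave a log2 fold change of 0.03.

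**Figure D3:**
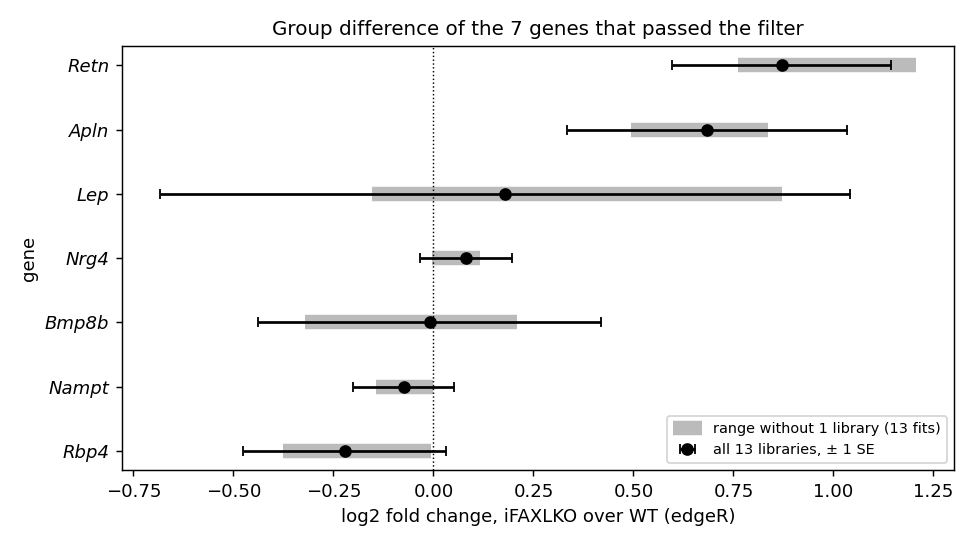
Log2 fold change of iFAXLKO over WT (edgeR) for the 7 genes that passed the filter, with ± 1 SE as black bars and the range over 13 fits that each left out 1 library in grey. Retn (0.87) and Apln (0.68) stay above 0 in all 13 fits, and Lep, Bmp8b and, by -0.004 without 1 library, Nrg4 cross 0.

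Fgf21 (ENSMUSG00000030827, chromosome 7, 45613886 to 45615490) and Gdf15 (ENSMUSG00000038508, chromosome 8, 70629393 to 70632456), the stress-induced hormones of the set, were close to the limit of detection. Fgf21 had 2 to 46 counts per library. It was at 0.262, 0.565, 1.35, 0.306 and 0.253 CPM in WT replicates 1 to 5, and ran from 0.0733 through a median of 0.331 to 1.23 CPM in iFAXLKO. In iFAXLKO replicates 1 and 2 it had 3 and 2 counts, no more than a count of 0 allows. Gdf15 had 3 to 90 counts, at 0.0982, 0.609, 2.65, 0.458 and 0.253 CPM in WT and from 0.188 through 0.352 to 0.577 CPM in iFAXLKO. WT replicate 3 was the highest library for both genes, with 46 and 90 counts, and the other values of the 2 groups overlapped.

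Neither gene separated the groups in an exact permutation test on mean log2 CPM, with p = 0.538 for Fgf21 and p = 0.549 for Gdf15. The mean of Fgf21 was 0.429 ± 0.375 CPM (SD, n = 8) in iFAXLKO and 0.548 ± 0.468 CPM (SD, n = 5) in WT, and its difference of mean log2 CPM was -0.36 over all libraries and 0.004 without WT replicate 3. The mean of Gdf15 was 0.379 ± 0.147 CPM (SD, n = 8) and 0.813 ± 1.04 CPM (SD, n = 5), and its difference of mean log2 CPM was -0.38 over all libraries and 0.19 without WT replicate 3. In an edgeR fit without the filter, the log2 fold change of Fgf21 was -0.39 (unadjusted p = 0.507, adjusted p = 0.902). That of Gdf15 in the same edgeR fit was -1.13 (unadjusted p = 0.077, adjusted p = 0.736). No difference was found for either gene, and how small a difference these libraries could show was not tested.

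Next, the 7 genes that passed the filter were compared with each other across the 13 libraries, as log2 CPM with the group means subtracted. Of 21 pairs, 11 had a positive and 10 a negative Pearson's r, and 1 pair passed an adjusted p of 0.05. Lep and Bmp8b were inversely related, with r = -0.71 (n = 13, permutation p = 0.00133 over 100000 shuffles within groups, adjusted p = 0.0279) and Spearman's rho = -0.81 (permutation p = 0.00152, adjusted p = 0.0319). The libraries with the lowest Lep, WT replicates 3 and 4 and iFAXLKO replicate 7, were 3 of the 4 libraries with Bmp8b above 27 CPM, and iFAXLKO replicates 6 and 8, with the lowest Bmp8b, were among the 4 with the highest Lep. Leaving out the 2 libraries farthest from the median of Lep, WT replicates 3 and 4, gave r = -0.73. The value was -0.78 in the 6 libraries with lower numbers and -0.80 in the 7 with higher numbers, and it stayed between -0.77 and -0.67 with each library left out. The strength of the relation depended on which marker score was taken out. With a macrophage score regressed out, r was -0.29 (permutation adjusted p = 0.754), and with a white adipocyte score regressed out it was -0.42 (permutation adjusted p = 0.585). With a skeletal muscle score regressed out, r was -0.75 (permutation adjusted p = 0.0571). The macrophage and white adipocyte sums of the extreme libraries are given above. The skeletal muscle markers, 13 of 13 tested, summed to 3.07 to 5788 CPM in iFAXLKO and 22.9 to 4022 CPM in WT.

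**Figure D4:**
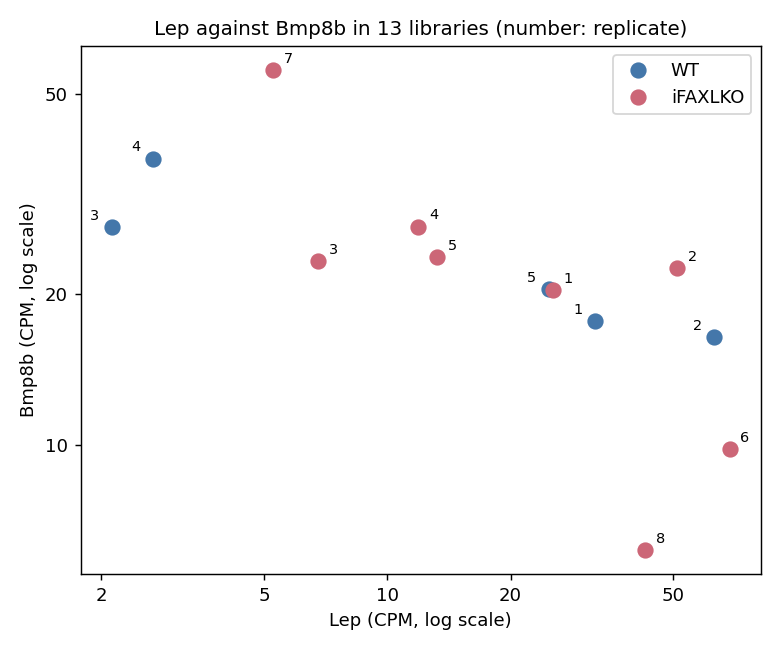
Bmp8b against Lep in CPM (both axes logarithmic), 1 point per library labelled by its replicate number, with WT in blue and iFAXLKO in red. Libraries with more Lep held less Bmp8b (r = -0.71 with group means subtracted, n = 13, and -0.29 with a macrophage score regressed out).

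The other 20 pairs did not pass the limit. The closest were Nrg4 with Apln (r = 0.63, permutation p = 0.0537, adjusted p = 0.564; rho = 0.71, permutation p = 0.0372, adjusted p = 0.391) and Lep with Rbp4 (r = 0.56, permutation p = 0.0989, adjusted p = 0.609; rho = 0.54, permutation p = 0.0993, adjusted p = 0.677). Without iFAXLKO replicates 7 and 8 the first was 0.68, and within the lower and upper library numbers it was 0.27 and 0.58. The second was 0.29 without WT replicates 3 and 4, and thus rested on these libraries, and -0.009 with a white adipocyte score regressed out. Retn with Bmp8b had r = -0.02.

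For each of the 7 genes, the 2 genes with the most similar pattern among the 13360 were taken by Pearson's r of log2 CPM with group means subtracted, over 13 libraries that share their depth and tissue composition across genes. Lep was closest to Gm45716 (0.96) and Anxa5, annexin A5 (0.96). Retn was closest to Sdf4 (0.87) and Tmed9 (0.87), which encode proteins of the early secretory pathway, and these were its nearest genes at a lower r than for any other member. Rbp4 was closest to Ola1 (0.93) and the GTPase gene Rac1 (0.90). For Nrg4, 2310033P09Rik (0.94) was among the 2 closest. Bmp8b was closest to Zkscan17 (0.89) and Smtn, smoothelin (0.89). Apln was closest to Klhl25 (0.93) and Trub1 (0.93), and Nampt to Atl2, an atlastin of the endoplasmic reticulum (0.92), and Lgalsl (0.92). These values describe the top of a ranked list and carry no test.

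The receptors through which the proteins act were then taken as a list of 21 genes, of which 16 passed the filter. None passed the adjusted limit, none was at an unadjusted p under 0.05 (7.38% of all genes were), and 12 were positive and 4 negative, with a median log2 fold change of 0.07. With each library left out, edgeR had 0 to 1 of them at an unadjusted p under 0.05. Those with the smallest p were Acvr1b, an activin receptor (log2 fold change 0.14, SE 0.12), Fgfr1 (0.11, SE 0.09), Fgfr3 (0.30, SE 0.28) and Acvr2b (0.23, SE 0.22), with edgeR adjusted p from 0.867 to 0.882. The following receptors were named after their values were seen, for their ligands. Klb, which encodes the β-Klotho co-receptor of FGF21, was at 30.8 ± 8.61 CPM (SD, n = 8) in iFAXLKO and 30.6 ± 3.86 CPM (SD, n = 5) in WT. Aplnr, the apelin receptor, was at 22.4 ± 13.1 and 18.2 ± 3.96 CPM. Erbb3 and Erbb4, receptors of neuregulins, were at 8.29 ± 2.19 and 7.69 ± 0.741 CPM and at 4.56 ± 0.812 and 5.18 ± 1.68 CPM. The leptin receptor Lepr was below the filter at 0.604 ± 0.181 and 0.460 ± 0.205 CPM, and Gfral, the receptor of GDF15, had 0 counts in all 13 libraries.

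Of 14 paralogs and co-ligands, 3 passed the filter, with 2 positive and 1 negative fold change. Retnla was at an unadjusted p under 0.05 (7.38% of all genes were) and none passed the limit. Rbp7, a retinol-binding protein of fat vessels, had a log2 value of -0.56 for iFAXLKO over WT (SE 0.39, adjusted p = 0.805). With each library left out, 1 to 2 of the list were at an unadjusted p under 0.05. Retnlb, Nrg3, Fgf15, Fgf23 and Ttr were at 0 in all 13 libraries.

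Nampt was also placed among 22 genes of NAD synthesis and use, of which 18 passed the filter, 5 with a positive and 13 with a negative fold change (median -0.04). None passed the adjusted limit and 1 was at an unadjusted p under 0.05 in the lower direction (3.54% of all genes were), with 1 to 2 in either direction when each library was left out. That gene was Sirt2, an NAD-dependent deacetylase, at 99.2 ± 2.202 CPM (SD, n = 8) in iFAXLKO and 115 ± 8.71 CPM (SD, n = 5) in WT. Its edgeR log2 fold change was -0.21 (SE 0.06, adjusted p = 0.407), and 0 of 8 iFAXLKO libraries were above the WT mean. Cd38, which encodes an NAD glycohydrolase, stood at 0.26 on the log2 scale (SE 0.15, adjusted p = 0.734), Nadsyn1, the NAD synthetase, -0.12 (SE 0.07, adjusted p = 0.748) and Nmnat1, which joins the mononucleotide to AMP, -0.11 (SE 0.08, adjusted p = 0.804).

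The integrated stress response, the pathway known to induce Fgf21 and Gdf15 through ATF4, was taken as 18 genes with 19 identifiers, since Ddit3 has 2. Of the 18 identifiers that passed the filter, 2 had a positive and 16 a negative fold change, with a median of -0.14 beside -0.01 over all genes, of which 46.4% were positive. None passed the adjusted limit, and 1 was at an unadjusted p under 0.05 and lower (3.54% of all genes were), with 0 to 1 in either direction when each library was left out. This was Atf5, a transcription factor of the pathway, at 211 ± 53.7 CPM (SD, n = 8) in iFAXLKO against 296 ± 101 CPM (SD, n = 5). Its edgeR log2 fold change was -0.49 (SE 0.22, adjusted p = 0.641), and 0 of 8 iFAXLKO libraries were above the WT mean. Next came Eif2ak3, the kinase PERK (-0.15, SE 0.09, adjusted p = 0.748), Ddit3, which encodes CHOP (-0.28, SE 0.17, adjusted p = 0.752, for the lower of its 2 identifiers and -0.22, SE 0.16, for the other), and Cebpg (-0.12, SE 0.08, adjusted p = 0.806).

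Among 54 other secreted factors of fat, 41 passed the filter and 1 passed the adjusted limit (0 to 1 with each library left out). Adipoq, which encodes adiponectin, rose from 708 ± 92.7 CPM (SD, n = 5) in WT to 1120 ± 132 CPM (SD, n = 8) in iFAXLKO, and its edgeR log2 fold change was 0.66 (SE 0.11, adjusted p = 0.0118). Its promoter is on the transgene of the iFAXLKO group alone, so that genotype and transgene cannot be told apart for it. Of the 41, 31 had a positive and 10 a negative fold change, with a median of 0.15, and 5 were at an unadjusted p under 0.05, all higher in iFAXLKO (3.84% of all genes were higher at that limit, and 3 to 8 of the list passed it in either direction with each library left out). Besides Adipoq, these included Angptl2, an angiopoietin-like protein (0.39, SE 0.13, adjusted p = 0.506), Fbn1, the fibrillin from which asprosin is cut (0.60, SE 0.21, adjusted p = 0.517), and Dpp4, a peptidase shed from fat (0.66, SE 0.25, adjusted p = 0.55). Fbn1 and Dpp4 are also expressed by fibroblasts, whose marker sums are given above, and the part of these cells was not tested.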

How the data were processed

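The deposited files hold raw counts, 1 whole number per Ensembl identifier and library, made by the authors. The submitters' processing notes name bcl2fastq 2.20, fastp 0.20.0, STAR 2.7.4a, DESeq2 and GRCm38.p6, whereas the methods of the study give Trim Galore and hisat2. The labels state polyadenylated RNA and the methods depletion of ribosomal RNA. The tool for counting and whether it used strand are not given in the sources used here. Symbols were found for 42263 of 42416 identifiers, and GENCODE M21 gave positions for 42347.

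Genes over 1 CPM in at least 5 libraries were kept (13360). Counts were scaled by TMM and compared with edgeR 4.0.16 (R 4.3.3), quasi-likelihood F test with robust dispersions, 2-sided, with Benjamini-Hochberg adjustment over the genes tested and a limit of 0.05. The SE is the log2 fold change divided by the square root of F. CPM use TMM factors, and log2 CPM a prior count of 2. Levels per kb divide CPM by the exon bases of GENCODE M21. Single values were compared by an exact permutation test over 1287 splits, and 21 pairs of genes by 100000 shuffles within groups, adjusted over the pairs. Lists were described by counts and medians. The scripts were tested on simulated counts. Replicates differed by at least 18.4 chi-square units per degree of freedom, over 38 pairs within groups. No library thus looked like a repeat of another, and each counted once. This cannot tell whether the libraries came from separate mice.

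The rule named Axl, the 9 genes, the 2 genes nearest to each of the 7, up to 4 genes of each pathway list by p and any that passed the limit, and some genes that met it are left out of the text. The genes and lists were chosen with earlier results of these data known. Alternatives were DESeq2 1.42.0, limma-voom (limma 3.58.1) with sample quality weights, other size factors and filters, protein-coding genes alone, the replicate number as a block, the range of library numbers, skeletal muscle and fibroblast scores as covariates, a prior count of 0.5, linear CPM and each library left out. Chosen after seeing the data were the macrophage score as a covariate, the white adipocyte and macrophage scores regressed out of the relations, and leaving out libraries for the lists and the relations. Promoters come from RefSeq. Motif letters were written from general knowledge.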

Additional observations from a re-analysis of the deposited data

Results flagged for a closer look

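Of 18 groups of values tested (9 genes in 2 groups), 5 had a library far from the others by Dixon's ratio of gap to range at its 95% critical value. Chance gives about 1 in 20 for normally distributed values. The ratios were taken on CPM without logarithms, for which that rate was not checked. iFAXLKO replicate 7 was the highest of its group for Bmp8b, at 55.9 CPM with the nearest library at 27.3 (ratio 0.576), and for Nrg4, at 110 CPM with the nearest at 85.9 (ratio 0.543). The macrophage markers were also highest in this library, at 301.5 CPM, and the Schwann cell markers lowest, at 153 CPM, and their part was not tested. WT replicate 3 was the highest of its group for Gdf15, at 2.65 CPM from 90 counts with the nearest at 0.608 (ratio 0.8), and for Fgf21, at 1.35 CPM from 46 counts with the nearest at 0.565 (ratio 0.716). WT replicate 1 was the highest for Nampt, at 411 CPM with the nearest at 365 (ratio 0.734). No cause was tested for any of the 5.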

How the results depend on the processing

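The count of the 7 genes past the limit was 0 in all 25 alternatives. The count over all genes was 17, and moved to 67 in DESeq2, 7 with protein-coding genes alone, 7 with the replicate block, 8 with the fibroblast score as a covariate and 14 to 19 with each library left out, and the cause was not tested. The log2 fold changes of 4 genes turned sign. Bmp8b was 0.016 with upper quartile factors, 0.029 with library sizes that left out mitochondrial genes and the 10 genes with most counts, 0.036 with the replicate block, 0.050 with the number range, 0.013 with the skeletal muscle score, and -0.322 to 0.209 with each library left out. Nrg4 was -0.101 with the replicate block, -0.032 with the fibroblast score and -0.004 to 0.116 with each library left out. Rbp4 was 0.030 in limma-voom. Lep was -0.153 to 0.871 with each library left out. Differences of mean log2 CPM with each library left out ran from -0.41 to 0.042 for Bmp8b, -0.011 to 0.097 for Nrg4, -0.382 to 0.033 for Rbp4, -0.603 to 0.004 for Fgf21 and -0.807 to 0.189 for Gdf15. The count of related pairs was 0 with the skeletal muscle, white adipocyte or macrophage score regressed out, where r of Lep and Bmp8b was -0.75, -0.422 and -0.289 and, with the white adipocyte score, r of Lep and Rbp4 was -0.009. Retn and Apln were positive in all alternatives run. The labels number replicates in both groups, but the deviations of same-numbered libraries correlated at 0.392, 0.422, 0.188, 0.181 and -0.614 for numbers 1 to 5, so the numbers were not read as pairs. With the replicate block, Apln was 0.137 and Retn 0.788. Fgf21 had 2 to 46 and Gdf15 3 to 90 counts per library, and how far depth limits them was not tested.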

Other observations

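Marker sums of cells not described above were as follows. Endothelial markers summed to 899 to 1396 CPM in iFAXLKO and 818 to 1118 CPM in WT, and mural cell markers to 671 to 849 and 537 to 813 CPM. Erythroid markers summed to 386 to 685 and 285 to 709 CPM. Lymphocyte markers, of which 1 passed the filter, summed to 13.3 to 37.4 CPM in iFAXLKO and 10.8 to 146 CPM in WT, with the highest value in WT replicate 1. Schwann cell markers summed to 153 to 316 and 242 to 380 CPM. Neutrophil and liver markers summed to at most 2.61 and 3.83 CPM in any library.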
